A study of Mus musculus with 6 samples.

Results

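Transcripts of 9 enzymes of the tricarboxylic acid cycle and the malate-aspartate shuttle were followed in mouse embryonic stem (ES) cells given a stable form of KBP. The genes are Cs, Idh3a, Ogdh, Sucla2, Fh1, Mdh1, Mdh2, Got1 and Got2. They were chosen by symbol, and all 9 were found among the 23420 gene symbols of the count table and passed the filter on low counts, as did 14340 symbols in all. The study compared self-renewing mouse ES cells stably transduced with a lentivirus for wild-type KBP (replicates 1 to 3) with cells transduced in the same way for KBP(KK/RR) (replicates 4 to 6). The labels describe this mutant as stable, and its name denotes lysines changed to arginines. KBP, the Kif1-binding protein, binds kinesin motors. Every library therefore comes from cells that carry a KBP virus, and cells without one are not part of the comparison. The labels do not give the ES cell line, the promoter of the virus or whether replicates came from separate cultures, so p-values measure the spread between these libraries, which may be technical.

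The tricarboxylic acid cycle runs in the mitochondrial matrix, where it oxidises the acetyl group of acetyl-CoA and passes the electrons to NAD and to the respiratory chain. The malate-aspartate shuttle carries the reducing power of cytosolic NADH into the matrix through a pair of malate dehydrogenases and a pair of aspartate aminotransferases, one of each pair in the cytosol and the other in mitochondria. Mouse ES cells are known for high glycolytic flux, and cycle intermediates such as alpha-ketoglutarate also serve in them as substrates of chromatin demethylases.

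Read totals ran from 24131743 to 32160411 counts per library. Principal components were taken on log2 CPM (counts scaled to a common library total). Component 1 (31.1% of the variance) separated the groups, and component 2 (20.8%) set wild-type KBP replicate 3 apart. Of the 10 ES cell markers all 10 passed the filter, with a summed level of 6881 to 6982 CPM in wild-type KBP and 6737 to 6978 CPM in KBP(KK/RR) libraries. Of these, 1 was called lower, Tfcp2l1 (log2 fold change -0.29, edgeR adjusted p = 8.28e-04). None was called higher, and 4 of the 10 had a log2 fold change above 0. Of 8 fibroblast or feeder markers 4 passed the filter and summed to 15.11 to 16.97 CPM in wild-type KBP and 15.02 to 15.95 CPM in KBP(KK/RR) libraries, while Postn, Lum, Dcn and S100a4 did not pass. The 7 of 8 tested neural markers summed to 232 to 238 CPM and 227 to 237 CPM, with Ncam1 called lower. Yet 5 of these 7 had a log2 fold change above 0, the highest being Map2 at 0.24 (edgeR adjusted p = 0.130). The 7 of 8 tested primitive endoderm markers summed to 123 to 144 CPM in wild-type KBP and to 105 to 116 CPM in KBP(KK/RR) libraries, with Col4a1 and Pdgfra called lower. Most of these sums was Col4a1 alone, at 105, 105 and 122 CPM in wild-type KBP and 97.6, 91.9 and 89.4 CPM in KBP(KK/RR) libraries. Pdgfra held 37 to 82 counts per library. With each of the 6 libraries left out in turn, Ncam1 was not called in 4 cases (edgeR adjusted p up to 0.109), Col4a1 in 3 (up to 0.114) and Pdgfra in 5 (up to 0.181), and Col4a1 was also not called after removal of a trend on transcript length and GC content (0.0866). The part of these markers in the results that follow was not tested.

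None of the 9 enzyme genes was called between the groups. The differences were small, and a p that misses the threshold does not show that the levels were the same: the 95% intervals below reach up to 17.2%. In the edgeR quasi-likelihood test, a call being a Benjamini-Hochberg adjusted p under 0.05, 0 of the 9 were called, against 3.12% of all tested genes, and DESeq2 also called 0 of the 9, against 3.10% of the genes to which it gave an adjusted p. Over all tested genes 1.05% were called higher and 2.07% lower (151 and 297, or 235 and 205 with upper-quartile scaling). Among the 2824 tested genes whose wild-type KBP mean lay in the range of the 9, 5.56% were called. An unadjusted p under 0.05 was reached by 3 of the 9, Mdh1, Fh1 and Sucla2, all of them higher in KBP(KK/RR), against 8.32% of all tested genes on that side. The log2 fold change (KBP(KK/RR) minus wild-type KBP) was above 0 for 8 of the 9, as for 49.2% of all tested genes. It ran from -0.01 to 0.14 with a median of 0.05, where the median of all tested genes was -0.00224. With the trend on transcript length and GC content removed, these medians were 0.0385 and 0.00503. In 4 of the 9 (Idh3a, Sucla2, Fh1 and Mdh1) every KBP(KK/RR) library lay above every wild-type KBP library, as in 11.8% of all tested genes. The groups were apart in either direction in 22.4% of all tested genes and in 29.4% of the 2824 at a like level. The 9th gene, Got1, had a log2 fold change below 0 that turned positive with upper-quartile scaling.

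**Figure D1:**
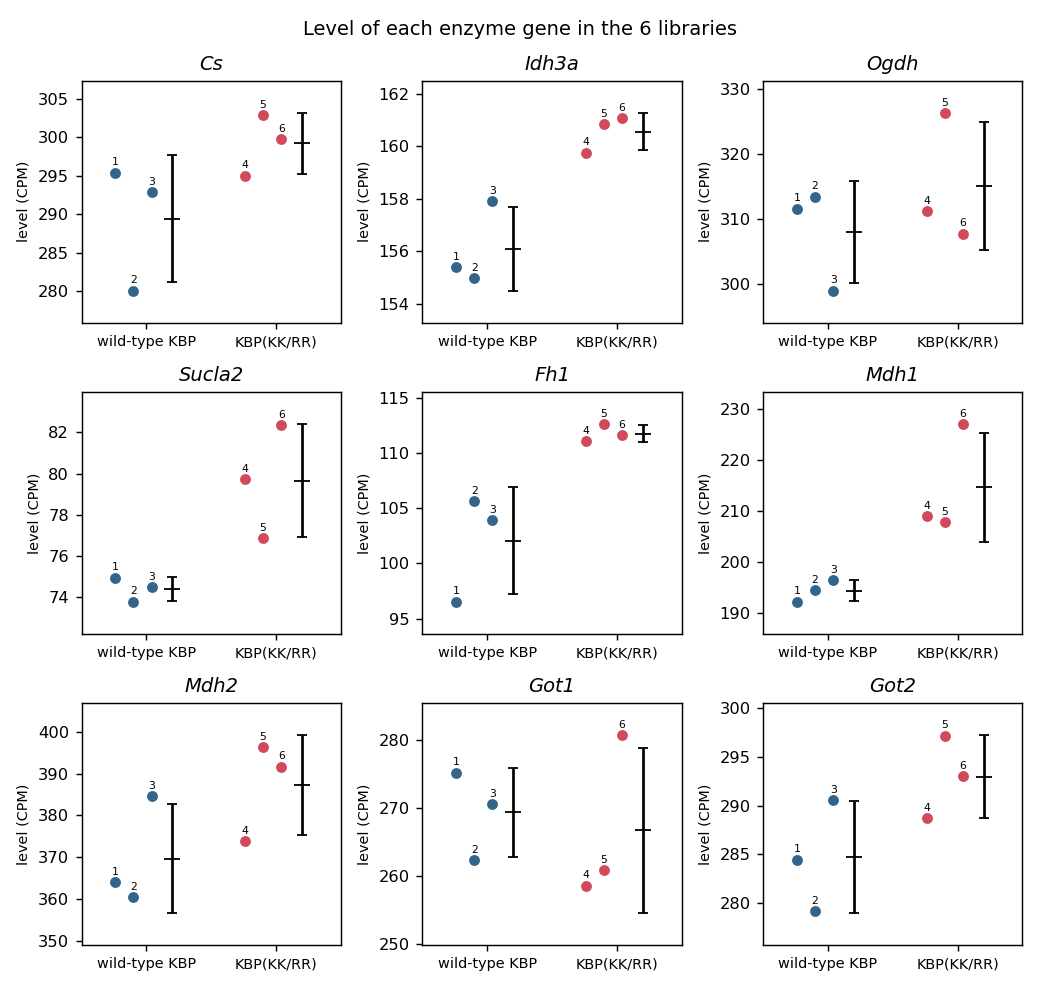
Level of each of the 9 genes in CPM (linear axis, not starting at 0) in the 3 wild-type KBP libraries (blue) and the 3 KBP(KK/RR) libraries (red), each point labelled with its replicate number, with the mean and SD beside the points. The groups are apart for Idh3a, Sucla2, Fh1 and Mdh1 and overlap for the other 5 genes.

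Cs (chromosome 10, 128337727 to 128362482 on GRCm38) encodes citrate synthase, which joins acetyl-CoA to oxaloacetate and so opens the cycle. Its level was 295, 280 and 293 CPM in wild-type KBP replicates 1, 2 and 3, and 295, 303 and 300 CPM in KBP(KK/RR) replicates 4, 5 and 6. Wild-type KBP replicate 2 was the lowest, and the highest wild-type library lay just above the lowest KBP(KK/RR) library. KBP(KK/RR) minus wild-type KBP came to 0.05 on the log2 scale (SE 0.04, edgeR adjusted p = 0.531), and the 95% interval of the change ran from -2.16% to 9.25%. Leaving out wild-type KBP replicate 2 gave 0.03, as did removing the part of each difference that followed transcript length and GC content.

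Idh3a (chromosome 9, 54586511 to 54604662) encodes the catalytic alpha subunit of the NAD-dependent isocitrate dehydrogenase of the matrix. The level was 155, 155 and 158 CPM in wild-type KBP replicates 1, 2 and 3 and 160, 161 and 161 CPM in KBP(KK/RR) replicates 4, 5 and 6. The groups did not overlap, and the fitted difference between them was 2.87%. The log2 fold change of 0.04 (SE 0.04) had an edgeR adjusted p of 0.608. For this gene edgeR's estimate of spread, made before the test's own fit, was a coefficient of variation between libraries of 3.91%. That is wider than the SD of 1.02% and 0.440% of the mean seen within the groups. With the trend on transcript length and GC content removed, the difference was 0.01 on the log2 scale.

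Ogdh (chromosome 11, 6291597 to 6359094) encodes the E1 subunit of the 2-oxoglutarate dehydrogenase complex, which turns alpha-ketoglutarate into succinyl-CoA. Its levels were 312, 313 and 299 CPM in wild-type KBP and 311, 326 and 308 CPM in KBP(KK/RR) libraries. The groups overlapped, with wild-type KBP replicate 3 lowest and KBP(KK/RR) replicate 5 highest. A log2 fold change of 0.03 resulted (SE 0.04, edgeR adjusted p = 0.703), or 0.01 when KBP(KK/RR) replicate 5, and likewise when wild-type KBP replicate 3, was left out.

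Sucla2 (chromosome 14, 73552786 to 73596144) encodes the beta subunit of the ATP-forming succinyl-CoA ligase. Its level was 74.9, 73.8 and 74.5 CPM in wild-type KBP and 79.7, 76.9 and 82.4 CPM in KBP(KK/RR) libraries. The groups did not overlap, the wild-type values lay close together and KBP(KK/RR) replicate 6 was the highest. The groups differed by 0.10 on the log2 scale (SE 0.05, edgeR adjusted p = 0.237), and by 0.05 after removal, in each library, of a smooth trend on transcript length and GC content.

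Fh1 (chromosome 1, 175601378 to 175625635) encodes fumarate hydratase, which adds water to fumarate to give malate. Levels were 96.5, 106 and 104 CPM with wild-type KBP and 111, 113 and 112 CPM with KBP(KK/RR). Here the KBP(KK/RR) libraries lay close together and wild-type KBP replicate 1 was low. The means were 102 ± 4.84 and 112 ± 0.794 CPM (SD, n = 3 each), a log2 fold change of 0.13 (SE 0.04, edgeR adjusted p = 0.108). Its 95% interval ran from 2.78% to 16.6% higher, and the log2 fold change was 0.09 without wild-type KBP replicate 1.

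Mdh1 (chromosome 11, 21556692 to 21571934) encodes the cytosolic malate dehydrogenase of the shuttle, which oxidises NADH as it reduces oxaloacetate to malate. It had the smallest p of the 9 genes. Its level was 192, 195 and 196 CPM in wild-type KBP and 209, 208 and 227 CPM in KBP(KK/RR) libraries. All KBP(KK/RR) libraries were above all wild-type KBP libraries, and replicate 6 stood above replicates 4 and 5. The means were 194 ± 2.09 and 215 ± 10.8 CPM (SD, n = 3 each), a difference of 10.4% with a 95% interval of 4.03% to 17.2%. On the log2 scale this was 0.14 (SE 0.04), and the edgeR adjusted p of 0.0611 missed the threshold.

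Whether Mdh1 was called depended on the setting. Its adjusted p was under 0.05 with upper-quartile scaling (0.0356), with library totals (0.04999), with no filter on low counts (0.0242) and without KBP(KK/RR) replicate 4 (0.0270). Without KBP(KK/RR) replicate 6 the log2 fold change was 0.10 and the edgeR adjusted p 0.340, and with the trend on length and GC content removed they were 0.10 and 0.0926. Mdh1 shares 52 exonic bases, 2.03% of its own, with Wdpcp on the opposite strand. Whether the counting used strand is not given in the sources used here. Wdpcp held 34 to 58 counts per library, where Mdh1 held 4712 to 6748.

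Mdh2 (chromosome 5, 135778649 to 135790386) encodes the mitochondrial malate dehydrogenase, which both closes the cycle by making oxaloacetate and serves the shuttle. It measured 364, 361 and 385 CPM with wild-type KBP and 374, 396 and 392 CPM with KBP(KK/RR). The groups overlapped, with wild-type KBP replicate 3 above KBP(KK/RR) replicate 4. They differed by 0.07 on the log2 scale (SE 0.04, edgeR adjusted p = 0.382), and by 0.03 with the trend on length and GC content removed.

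Got1 (chromosome 19, 43499752 to 43524605) encodes the cytosolic aspartate aminotransferase, which makes oxaloacetate from aspartate for Mdh1. Its levels were 275, 262 and 271 CPM in wild-type KBP and 259, 261 and 281 CPM in KBP(KK/RR) libraries. KBP(KK/RR) replicates 4 and 5 were the lowest of the 6 libraries and replicate 6 was the highest. With a log2 fold change of -0.01 (SE 0.04, edgeR adjusted p = 0.890), its sign changed when replicate 1, 4 or 5 was left out, as well as with upper-quartile scaling. The 95% interval of the change ran from -6.63% to 5.04%.

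Got2 (chromosome 8, 95864133 to 95888401) encodes the mitochondrial aspartate aminotransferase, the matrix partner of Got1. It measured 284, 279 and 291 CPM in wild-type KBP and 289, 297 and 293 CPM in KBP(KK/RR) libraries. The groups overlapped through wild-type KBP replicate 3 and KBP(KK/RR) replicate 4. Their difference on the log2 scale was 0.04 (SE 0.04, edgeR adjusted p = 0.593). Like Mdh1, Got2 overlaps a gene on the opposite strand: it shares 434 exonic bases, 8.997% of its own, with Gm45760. That gene is not among the symbols of the count table, so its counts could not be set beside those of Got2. The part of this overlap in the level of Got2, or in its ratio to Got1 below, was not tested.

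Summed over the 9 genes, the level was 2050, 2025 and 2070 CPM in wild-type KBP and 2087, 2142 and 2155 CPM in KBP(KK/RR) libraries, so the summed levels of the groups did not overlap. As a share of all counts this was 0.202% to 0.206% and 0.208% to 0.216%. The sums of the 11 other cycle enzymes also did not overlap (1746 to 1764 against 1770 to 1821 CPM). Nor did those of the 6 shuttle carrier and glycerol phosphate genes (375 to 377 against 382 to 384 CPM). Those of the pyruvate entry genes (880 to 894 against 892 to 906 CPM) and the side-reaction genes (1703 to 1781 against 1716 to 1757 CPM) overlapped. No share over all genes was taken for such sums. The number of the 9 genes that lay above their own mean over the 6 libraries (on the log2 scale) was 3, 1 and 3 with wild-type KBP and 5, 7 and 8 with KBP(KK/RR). Wild-type KBP replicate 2 held the lowest value for 5 of the genes, and KBP(KK/RR) replicates 5 and 6 held the highest value for all 9 between them. In bulk RNA, a change in the number of cells that hold a transcript and a change in the transcript per cell cannot be told apart.

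Counting error enters these differences. The library with the fewest counts of a gene held 1786 (Sucla2) to 9222 (Mdh2), which gives a counting SD of 2.37% to 1.04% of the value, in addition to the spread between libraries. Over all genes, the replicate libraries of a group differed by more than counting error (chi-square of 2.60 to 6.79 per degree of freedom), and none was treated as a duplicate. Among the 9 genes the SD within a group lay on both sides of the counting SD. For Idh3a it was 1.02% in wild-type KBP and 0.440% in KBP(KK/RR), against 1.62%. For Cs it was 2.84% and 1.32%, against 1.19%. The estimate of spread between libraries that edgeR made before the test's own fit was 3.91% (Idh3a) to 4.30% (Mdh2) for the 9 genes.

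**Figure D2:**
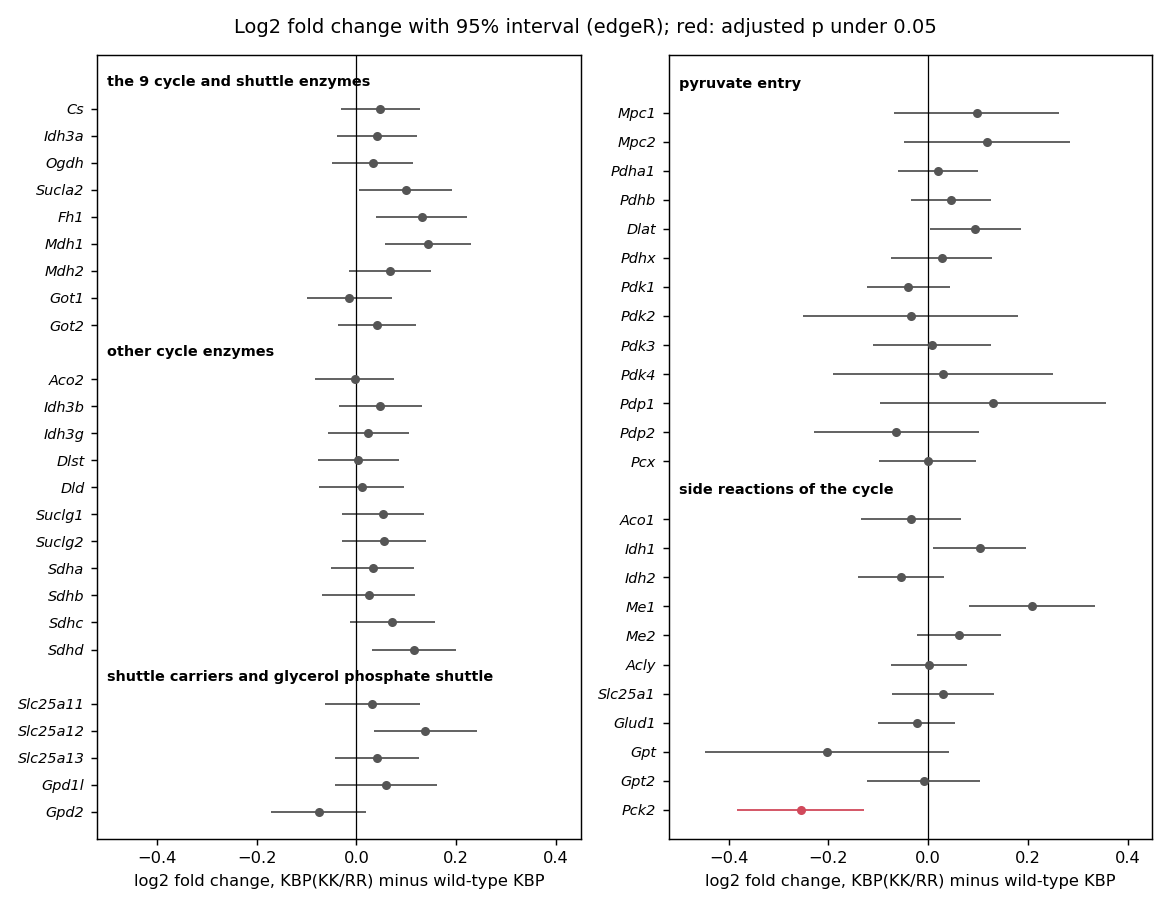
Log2 fold change (KBP(KK/RR) minus wild-type KBP, horizontal axis) with its 95% interval from edgeR for the 9 genes and for the other cycle, shuttle, pyruvate and side-reaction genes; red marks an adjusted p under 0.05. Only Pck2 is red, at -0.25, and Gpd1, at under 1 CPM in each group's mean, is left off.

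Of the other genes of the pathway, 1 was called, Pck2, and their log2 fold changes ran from -0.25 to 0.68. Of the 11 remaining subunits and enzymes of the cycle 0 were called in either direction by edgeR, 1 had an unadjusted p under 0.05, and 10 of 11 had a log2 fold change above 0, with a median of 0.03. That 1 was Sdhd, a membrane anchor subunit of succinate dehydrogenase, with 128, 123 and 124 CPM in wild-type KBP and 135, 134 and 137 CPM in KBP(KK/RR) libraries. Its groups did not overlap, and the difference was 0.12 on the log2 scale (SE 0.04, edgeR adjusted p = 0.123), or 0.06 after removal of the length and GC trend. Sdhc, the other membrane anchor subunit, had a log2 fold change of 0.07 and Suclg2, the beta subunit of the GTP-forming succinyl-CoA ligase, of 0.06 (edgeR adjusted p 0.365 and 0.485), which were 0.06 and 0.02 after that removal. The partner subunits of Idh3a, Idh3b and Idh3g, had log2 fold changes of 0.05 and 0.02, and those of Ogdh, Dlst and Dld, of 0.00402 and 0.01 (edgeR adjusted p from 0.557 to 0.971; these 4 were named because they share an enzyme with a gene above). With the trend on length and GC content removed the median of the 11 was 0.00784.

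Of 6 genes for the shuttle's carriers and for the glycerol phosphate shuttle, a second route for cytosolic reducing power, 0 were called by edgeR, 1 had an unadjusted p under 0.05, and 5 had a log2 fold change above 0, with a median of 0.05. The 1 was Slc25a12, an aspartate-glutamate carrier that exchanges the shuttle's amino acids across the inner membrane. It measured 48.2, 46.0 and 44.99 CPM in wild-type KBP and 49.7, 52.6 and 51.0 CPM in KBP(KK/RR) libraries, without overlap. This was a log2 fold change of 0.14 (SE 0.05, edgeR adjusted p = 0.131), and 0.18 with an adjusted p of 0.0212 after removal of the length and GC trend. Slc25a13, another carrier of this list named after its values were seen, was more abundant, at 111 ± 1.33 and 114 ± 1.11 CPM. Its groups did not overlap either, and its log2 fold change was 0.04 (edgeR adjusted p = 0.622). Gpd2, the mitochondrial glycerol-3-phosphate dehydrogenase, had a log2 fold change of -0.08 and its cytosolic partner Gpd1, at 0.426 ± 0.141 and 0.676 ± 0.296 CPM, of 0.68 (edgeR adjusted p 0.394 and 0.324). Both moved with single libraries: Gpd2 was -0.04 without KBP(KK/RR) replicate 6 and -0.10 without wild-type KBP replicate 1, and Gpd1 was 0.42 without KBP(KK/RR) replicate 6 and 1.03 without replicate 4. After removal of the trend Gpd2 was at -0.05. Gpd1l, of the same list and named here after its values were seen, was more abundant than Gpd1. It measured 42.0 ± 0.155 and 43.8 ± 0.931 CPM (log2 fold change 0.06, edgeR adjusted p = 0.548).

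Of 13 genes for the entry of pyruvate, 0 were called by edgeR and 9 had a log2 fold change above 0, with a median of 0.03 (-0.00401 after removal of the trend). In this list 1 had an unadjusted p under 0.05, Dlat, the E2 subunit of pyruvate dehydrogenase (79.2 ± 1.66 against 84.5 ± 0.808 CPM, log2 fold change 0.10, adjusted p 0.243). The pyruvate carrier genes Mpc1 and Mpc2 differed by 0.10 and 0.12 on the log2 scale (edgeR adjusted p 0.541 and 0.452). Mpc1 was at 0.05 without KBP(KK/RR) replicate 4, at 0.06 without wild-type KBP replicate 2 or 3, at 0.18 without wild-type KBP replicate 1 and at 0.04 after removal of the trend. Of 13 genes for side reactions of the cycle 11 were tested, Me3 and Pck1 having too few counts. Of the 11, 0 were called higher and 1 lower by edgeR, and 5 had a log2 fold change above 0, with a median of -0.00883 (0.00911 with upper-quartile scaling). Pck2, the mitochondrial phosphoenolpyruvate carboxykinase, which draws oxaloacetate out of the cycle, measured 29.0, 28.8 and 27.6 CPM in wild-type KBP and 23.1, 26.0 and 22.8 CPM in KBP(KK/RR) libraries. It fell by 0.25 on the log2 scale (SE 0.06, edgeR adjusted p = 0.0250), but its adjusted p was 0.0607, 0.114 and 0.158 when replicates 1, 2 and 6 were left out in turn. Me1, the cytosolic malic enzyme, which uses malate to make NADPH and is named here after its values were seen, measured 29.6 ± 2.40 and 34.1 ± 1.26 CPM (log2 fold change 0.21, edgeR adjusted p = 0.0621).

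Among the 49 other tested genes of these lists, the genes whose pattern over the 6 libraries was closest to that of Mdh1 were Sucla2, Idh1 and Sdhd. The measure was the root mean square difference of log2 CPM after each gene was centred on its own mean, which was 0.0333, 0.0388 and 0.0402. It takes in the difference between the groups, so genes with a log2 fold change near that of Mdh1 tend to come first. Whether these genes share a regulator was not tested. Idh1, the cytosolic isocitrate dehydrogenase, had a log2 fold change of 0.10 (edgeR adjusted p = 0.222), or 0.05 after removal of the length and GC trend.

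The sequences before the start sites are shown for Mdh1, Fh1 and Sucla2, the genes with an unadjusted p under 0.05, and for Got1, whose sign was the opposite. Each is the 150 bases upstream of the RefSeq start on GRCm38.p6, read 5′ to 3′ on the strand of the gene, with the letters CCAAT or their reverse complement ATTGG, the core of the site that the factor NF-Y binds, in capitals. Mdh1 lies at chr11:21571935-21572084 (minus strand), Fh1 at chr1:175625636-175625785 (minus), Sucla2 at chr14:73552636-73552785 (plus) and Got1 at chr19:43524606-43524755 (minus).
Mdh1: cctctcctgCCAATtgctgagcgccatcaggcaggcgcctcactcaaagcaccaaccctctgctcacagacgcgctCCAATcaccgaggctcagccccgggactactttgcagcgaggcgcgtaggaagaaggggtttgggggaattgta
Fh1: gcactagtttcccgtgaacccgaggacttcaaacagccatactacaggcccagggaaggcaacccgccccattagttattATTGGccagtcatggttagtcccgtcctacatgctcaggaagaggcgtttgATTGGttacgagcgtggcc
Sucla2: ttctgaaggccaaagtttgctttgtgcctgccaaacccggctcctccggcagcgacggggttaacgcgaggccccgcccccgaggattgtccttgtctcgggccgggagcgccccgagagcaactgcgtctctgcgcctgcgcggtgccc
Got1: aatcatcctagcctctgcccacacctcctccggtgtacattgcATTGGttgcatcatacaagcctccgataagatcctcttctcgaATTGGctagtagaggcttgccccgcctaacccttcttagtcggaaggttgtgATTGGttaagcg

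RefSeq windows were found for 8 of the 9 genes, all but Idh3a. On either strand, the CCAAT letters stood in 5 of the 8 (Cs, Ogdh, Fh1, Mdh1 and Got1), and in 31.9% of the 10501 tested genes with a window (24.5% of all RefSeq windows of this length). Of the genes whose sequences are shown, Mdh1, Fh1 and Got1 hold them and Sucla2 does not. The part of these letters in the levels was not tested. On both strands, 4 other motifs linked to nuclear genes of mitochondrial proteins were searched: that of NRF1 (its 8 central letters, CGCATGCG), of the ETS family that includes GABPA (CCGGAAG), of the ERR receptors (TCAAGGTCA) and of YY1 (AAGATGGC). The NRF1 letters stood in 1 of the 8, before 2 of the 6 RefSeq starts of Ogdh, and in 2.9997% of the tested genes (1.29% of all windows). Those of the ETS family, ERR and YY1 were in 0 of the 8 and in 12.2%, 0.152% and 1.39% of the tested genes (5.52%, 0.180% and 0.861% of all windows). No matches of different motifs overlapped in the windows of these genes.

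**Figure D3:**
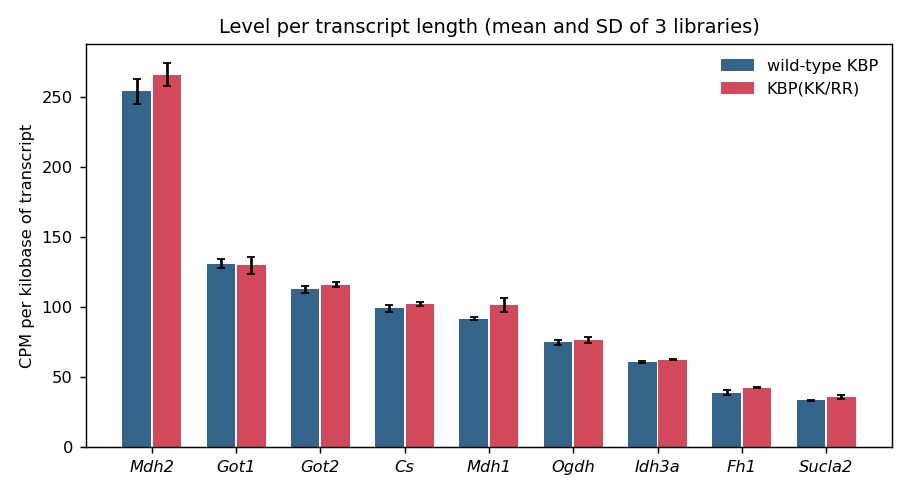
Level per transcript length of the 9 genes in CPM per kilobase of the longest coding transcript (bars start at 0; mean of 3 libraries, error bars are SD) in wild-type KBP (blue) and KBP(KK/RR) (red) cells. Mdh2 is the highest at 254 and 266 CPM per kilobase, and Sucla2 the lowest at 33.4 and 35.7.

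To compare levels between genes, CPM was divided by the length in kilobases of the longest coding transcript in GENCODE M21. On this scale the wild-type KBP level was 254 ± 8.90 for Mdh2, 131 ± 3.16 for Got1, 113 ± 2.27 for Got2, 98.9 ± 2.81 for Cs and 91.6 ± 0.987 for Mdh1. Below these came Ogdh at 74.6 ± 1.91, Idh3a at 60.5 ± 0.616, Fh1 at 38.7 ± 1.84 and Sucla2 at 33.4 ± 0.264 CPM per kilobase (SD, n = 3). The shuttle enzymes and citrate synthase thus took the first 5 places. No neighbours in this order overlapped in the wild-type KBP libraries. The order of the means was the same in KBP(KK/RR), where Cs (101 to 103 CPM per kilobase) and Mdh1 (98.0 to 107) overlapped. The order depends on the transcript taken: with the median coding transcript, which is a short model for several of these genes, 2 of the 9 kept their place.

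Got1 and Got2 have single coding transcripts in this annotation, as does Cs. The order of these genes therefore does not depend on which coding transcript is taken. It may depend on the length in other ways: all annotated exons of Got2 cover 4824 bases, against 2530 in its coding transcript. No level was taken per length of all exons. Got1 was 1.16 times Got2 per kilobase in wild-type KBP and 1.12 times in KBP(KK/RR) cells.

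**Figure D4:**
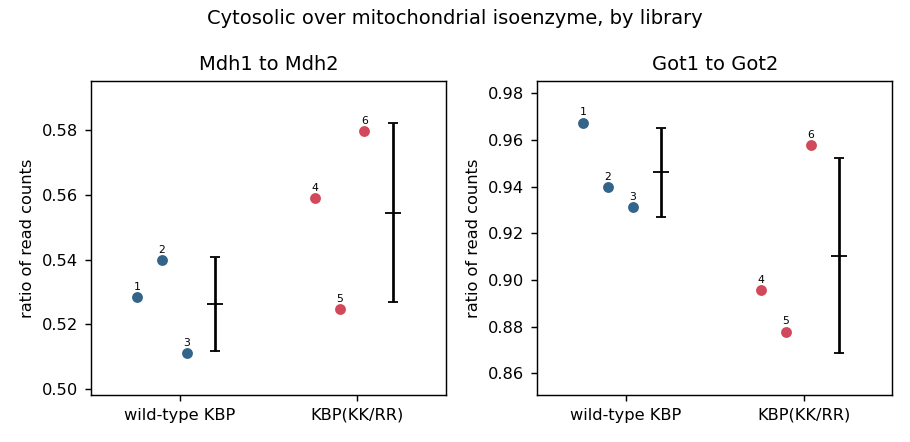
Ratio of read counts of the cytosolic to the mitochondrial isoenzyme (vertical axis, not starting at 0) in each library, for malate dehydrogenase (Mdh1 to Mdh2, left) and aspartate aminotransferase (Got1 to Got2, right), with the mean and SD beside the points. The groups overlap in both: KBP(KK/RR) replicate 5 lies among the wild-type libraries on the left and replicate 6 on the right.

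The balance of the cytosolic and mitochondrial isoenzymes was followed as a ratio of raw counts within each library, which no scaling between libraries can change. The ratio of Mdh1 to Mdh2 was 0.528, 0.540 and 0.511 in wild-type KBP and 0.559, 0.525 and 0.580 in KBP(KK/RR) libraries. Replicates 4 and 6 lay above all wild-type libraries and replicate 5 among them. The ratio of Got1 to Got2 was 0.967, 0.940 and 0.931 in wild-type KBP and 0.896, 0.878 and 0.958 in KBP(KK/RR) libraries. Here replicates 4 and 5 lay below all wild-type libraries and replicate 6 among them. The mean ratio was 5.37% higher for the malate dehydrogenases (0.526 ± 0.0145 against 0.555 ± 0.0279) and for the aminotransferases the difference was -3.77% (0.946 ± 0.0190 against 0.910 ± 0.0419; SD, n = 3 each). Both pairs of groups overlap, and no test was made of these ratios.

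**Figure D5:**
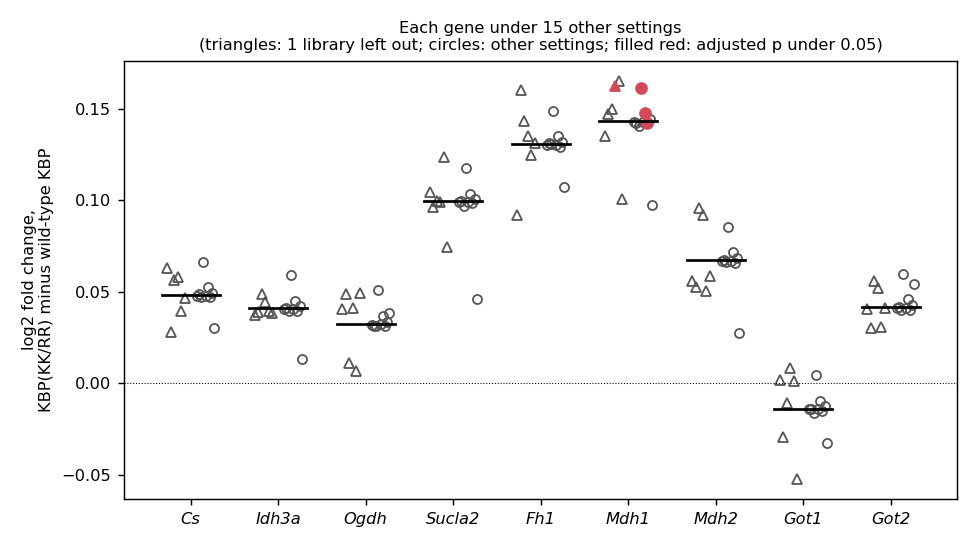
Log2 fold change of each of the 9 genes (KBP(KK/RR) minus wild-type KBP, vertical axis) as reported (black line), with 1 library left out (triangles) and under the other settings (circles); filled red marks an adjusted p under 0.05. Mdh1 has the only red points, 4 of its 15, and Got1 has the only points on both sides of 0.

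Over 15 other settings of the analysis, 8 of the 9 genes kept a log2 fold change above 0 in all 15, and Got1 stayed below 0 in 11. Mdh1 ranged from 0.10 to 0.17, Fh1 from 0.09 to 0.16 and Sucla2 from 0.05 to 0.12. The ranges of Cs (0.03 to 0.07), Idh3a (0.01 to 0.06), Ogdh (0.01 to 0.05), Mdh2 (0.03 to 0.10) and Got2 (0.03 to 0.06) stayed closer to 0. Mdh1 was called in 4 of the 15, and the others in 0. Beside Mdh1, the smallest adjusted p over these settings was 0.0621 for Fh1, with upper-quartile scaling.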

How the data were processed

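Total RNA (6 libraries, 3 per group) went through RiboZero removal of ribosomal RNA and the ScriptSeq v2 kit, per the labels' protocols. The submitters' processing notes name bcl2fastq, TopHat, HTSeq and DESeq2, with no versions, and the builds mm10 and GRCm38; for the counting annotation, strand setting and filters, details were not given in the sources used here. What the authors deposited is raw counts per gene symbol and a normalized signal. By its values, the deposited signal is each count divided by 1 factor per library: 100% of its values above 0 came out as whole reads within 0.01, and 0 differed from the raw counts. On those reads edgeR called 448 genes, as on the raw counts.

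Raw counts were tested with edgeR 4.0.16 (R 4.3.3; filterByExpr, TMM, robust quasi-likelihood fit, group as the only term) over 14340 genes. A log2 fold change's standard error (SE) is its size divided by the square root of F. CPM values use TMM-scaled totals. The alternatives used DESeq2 1.42.0, limma 3.58.1 (voom; trend on log2 of the signal plus 1), other scalings and filters, each library left out, and a trend on length and GC content (splines with 5 degrees of freedom) removed. Recovered reads were added after seeing the data. Length and GC content, from GENCODE M21, were found for 99.1% of tested genes. The procedure was tested on simulated counts. The members and lists were chosen with earlier results of these data known. Named were all 9 genes; of each other list, the called genes or else up to 3 with the smallest p; and the 3 genes most like the one with the smallest p.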

Additional observations from a re-analysis of the deposited data

How the results depend on the processing

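The count of called genes, 448 over all genes, was 298 with DESeq2, 966 with no filter on low counts and 688 after removal of the length and GC trend, and ran from 122 (without KBP(KK/RR) replicate 6) to 767 (without KBP(KK/RR) replicate 4) when 1 library was left out. With that trend removed the calls split into 312 higher and 376 lower, against 151 and 297. Of the 9 enzyme genes 0 were called; the count was 1 under upper-quartile scaling, 1 under library totals and 1 with no filter, and 0 to 1 when 1 library was left out, Mdh1 in each case. The log2 fold change of Got1 turned to 0.00417 with upper-quartile scaling, and to 0.00151, 0.00822 and 0.00136 without wild-type KBP replicate 1, KBP(KK/RR) replicate 4 or KBP(KK/RR) replicate 5; over all omissions it ran from -0.052 to 0.00822. That of Col1a2, a feeder marker at 0.07, turned to -0.10 without wild-type KBP replicate 2 and ran up to 0.28 in the other omissions. The cause of these changes was not tested. The isoenzyme ratios kept their direction in every omission (1.03 to 1.08 for Mdh1 to Mdh2 and 0.937 to 0.979 for Got1 to Got2, as KBP(KK/RR) over wild-type KBP). By length, 2 of 9 genes kept their rank with the median coding transcript and 1 with the shortest. Upper-quartile scaling moved the median log2 fold change of all genes from -0.00224 to 0.0158. No paired analysis was possible because the groups share no replicate number.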
